A study of Mus musculus with 2 samples.

Results

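The CCN genes encode secreted regulators of the extracellular matrix, and 5 of them (Ccn1, Ccn2, Ccn3, Ccn4 and Ccn5) were examined in mouse embryonic fibroblasts with and without Fut8. Members were the probe sets whose gene symbol in the platform annotation was exactly one of these names, which gave 10 probe sets for 5 of the 18193 genes on the array. Cells homozygous for the disrupted gene (Fut8-/-) and cells with both normal copies (Fut8+/+) were each represented by 1 array. Fut8 is the enzyme that places a fucose on the innermost sugar of N-glycans (core fucosylation). Cells of both genotypes were labelled as the cell line MEF and were grown in the same serum-containing medium. How Fut8 was disrupted and whether each line came from 1 clone or several embryos are not stated by the labels. With 1 array per genotype there was no replicate check on any value and no test was possible. The family was picked from the ratios between these 2 arrays, so its values are a description.

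CCN proteins are built from modules that resemble IGF-binding proteins, von Willebrand factor type C repeats, thrombospondin repeats and a C-terminal cystine knot, the last of which is missing in Ccn5. They bind integrins, heparan sulfate proteoglycans and growth factors in the matrix, and so alter adhesion, migration and growth factor signalling. In fibroblasts Ccn1 and Ccn2 are known as early targets of the mechanosensitive co-activators YAP and TAZ, of serum response factor and of TGF-beta. Ccn4 and Ccn5 have been described as genes induced by Wnt signalling.

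The family was not lower or higher as one block. Ccn2 was 4.36-fold lower on the Fut8-/- array, Ccn5 was 7.13-fold higher, Ccn1 was near equal at its brightest probe set, Ccn4 was modestly lower, and Ccn3 was too dim to measure. Signals are given as deposited, on a linear scale. Ratios are Fut8-/- over Fut8+/+, centred so that the median probe set above the floor is equal on both arrays (as deposited, the median log2 ratio was -0.22), and signals under a floor of 12.3 were raised to it. A gene counted as measured where its brighter array reached a scaled signal of 39.1, and where 1 array lay at the floor the ratio is only a bound. Of the 4 measured members, 1 was higher by 2-fold or more, 1 was lower by as much and 2 lay between. Over all 10164 measured genes 6.08% were higher by 2-fold or more, 8.46% were lower by 2-fold or more and 14.5% passed 2-fold in either direction. Because these ratios also chose the family, nothing is read from that difference. Over all measured genes, higher ones made up 41.8% of those past 2-fold, and 25.7% without centring (416 higher and 1205 lower). The median log2 ratio was -0.24 over the measured members and 0 over all measured genes.

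**Figure D1:**
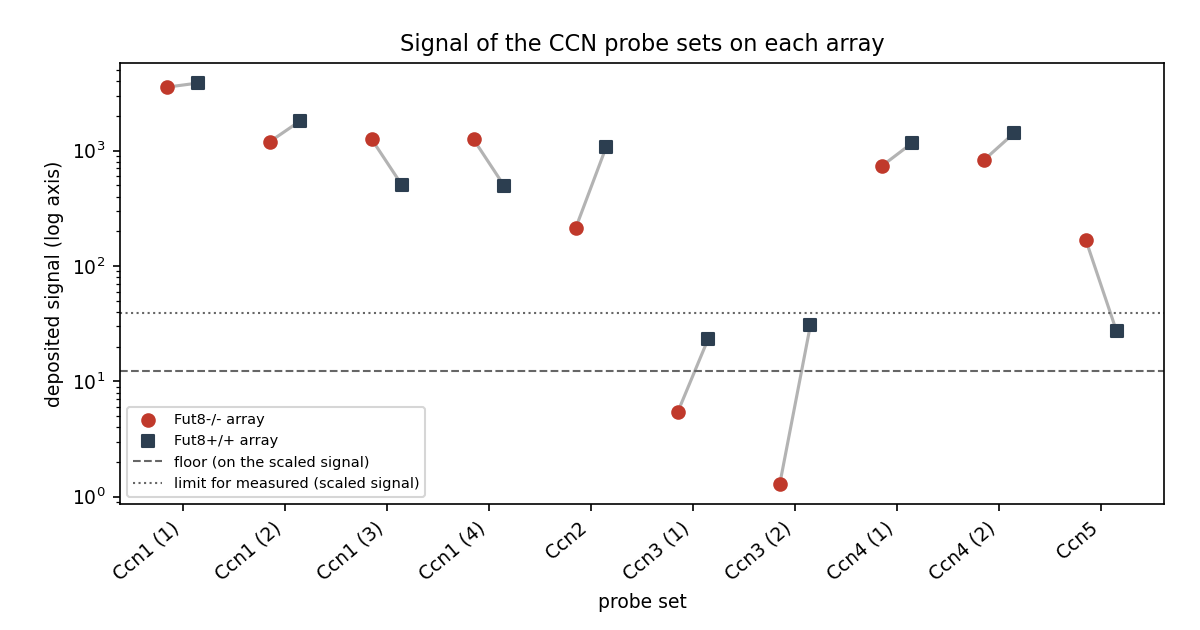
Deposited signal (log axis) of each CCN probe set on the Fut8-/- array (red circles) and the Fut8+/+ array (dark squares), joined by a line; numbers in brackets count the probe sets of a gene in order of their identifiers. Ccn2 is lower on the Fut8-/- array (213 in Fut8-/- and 1080 in Fut8+/+) and Ccn5 higher (167 in Fut8-/- and 27.2 in Fut8+/+), while the 4 probe sets of Ccn1 slope in different directions.

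Ccn2, long known as connective tissue growth factor (Ctgf) and a mediator of fibrotic matrix production, lies on chromosome 10 and was read by 1 probe set (1416953_at). Its signal was 213 on the Fut8-/- array, against 1080 on the Fut8+/+ array. Both signals stood well clear of the floor, at 20.1 times its value on the Fut8-/- array and 87.5 times on the Fut8+/+ array once scaled. The log2 ratio was -2.12, and 2.47% of the measured genes had a ratio as low or lower (251 of 10164). Probe sets of one gene served as a yardstick of spread. Where their mean log2 signal was within 1 unit of that of Ccn2, their log2 ratios differed with an SD of 0.31 (1316 genes). That spread comes from within this pair of arrays and can include differences between transcripts of a gene. It leaves out variation between cultures and any labelling or hybridisation error common to an array. On chromosome 10 the median log2 ratio of all measured genes was 0.11, of the other sign from Ccn2, and centring each chromosome on its own median gave -2.21 for Ccn2. Since a culture is a mixture of cells, fewer cells that express a gene and less RNA per cell cannot be told apart.

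Ccn5 (earlier Wisp2), the member without the C-terminal module and a growth inhibitor in smooth muscle cells, lies on chromosome 2 and also had 1 probe set (1419015_at). Its signal was 167 on the Fut8-/- array, against 27.2 on the Fut8+/+ array. The Fut8+/+ signal was only 2.20 times the floor and below the limit for measured genes, whereas the scaled Fut8-/- signal was 15.7 times the floor. The log2 ratio was 2.83, and 73 measured genes (0.718%) had a ratio as high or higher. The within-gene SD at this signal level was 0.46 (2254 genes). With the floor raised to the 60th percentile, which turns the Fut8+/+ signal into a bound, Ccn5 was at least 2.31 higher on the log2 scale. On chromosome 2 the median log2 ratio of all measured genes was 0.10.

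Ccn2 and Ccn5 lay on opposite sides, and the gap between them does not depend on how the arrays are scaled by a constant. The log2 ratio of Ccn5 exceeded that of Ccn2 by 4.96, or 31.1-fold, both with and without centring. It was 5.03 after quantile normalization and 4.43 with the higher floor.

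**Figure D2:**
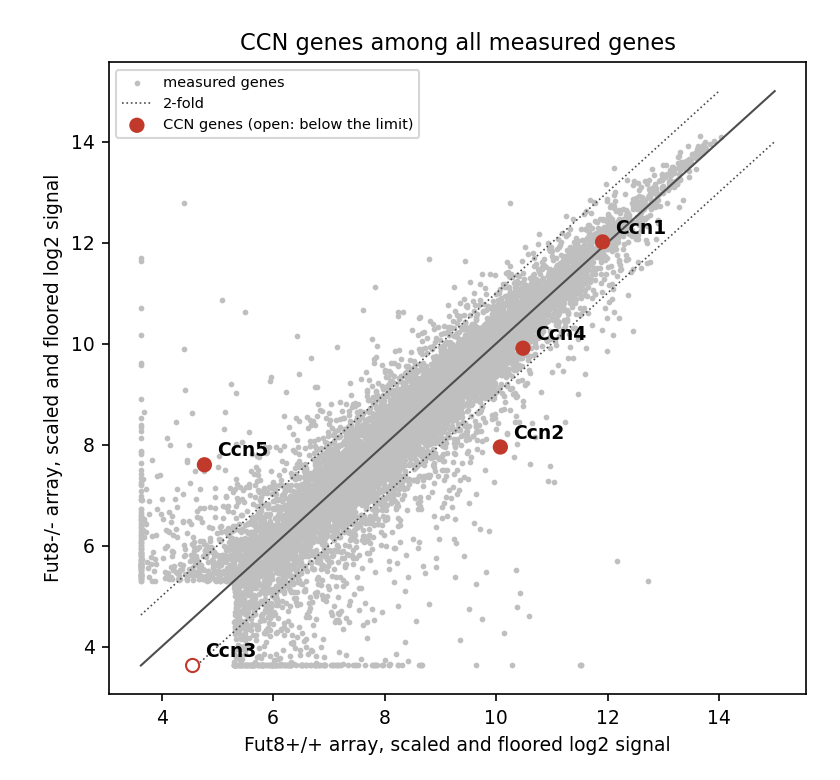
Scaled and floored log2 signal of every measured gene on the Fut8-/- array (vertical axis) and the Fut8+/+ array (horizontal axis), with equality as a solid line and 2-fold as dotted lines. Ccn5 (log2 ratio 2.83) lies above the upper dotted line, Ccn2 (-2.12) below the lower one, Ccn1 and Ccn4 between them, and Ccn3 (open circle) is under the limit for measured genes.

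Ccn1 (earlier Cyr61), which promotes adhesion and senescence of fibroblasts through integrins, lies on chromosome 3 and was read by 4 probe sets that disagreed. The brightest (1416039_x_at) had a signal of 3554 on the Fut8-/- array, against 3851 on the Fut8+/+ array, a centred log2 ratio of 0.10. This value was near 0 with a sign that turned: it was -0.12 without centring and -0.09 with each chromosome centred. A further probe set (1438133_a_at) had 1190 on the Fut8-/- array, against 1807 on the Fut8+/+ array, a log2 ratio of -0.38. The remaining pair (1442340_x_at and 1457823_at) had 1259 and 1249 on the Fut8-/- array, against 499 and 494 on the Fut8+/+ array, each 2.94-fold higher. These last probe sets were designed from the same sequence record, so they are not independent readings of the gene. Identifiers ending in _x_at mark probe sets with probes that can match other transcripts, and those ending in _a_at read several transcripts of one gene.

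The range of log2 ratios within Ccn1 was 1.94, or 3.84-fold. Among the 553 genes with 4 probe sets that both arrays measured above the floor, 9 (1.63%, Ccn1 included) had a range as large, and the median range was 0.65. The median over the 4 probe sets of Ccn1 was 0.83, but with 1 value for each of its 3 sequence records it was 0.10. The direction of Ccn1 is therefore not settled by these arrays, and why its probe sets differ was not tested.

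**Figure D3:**
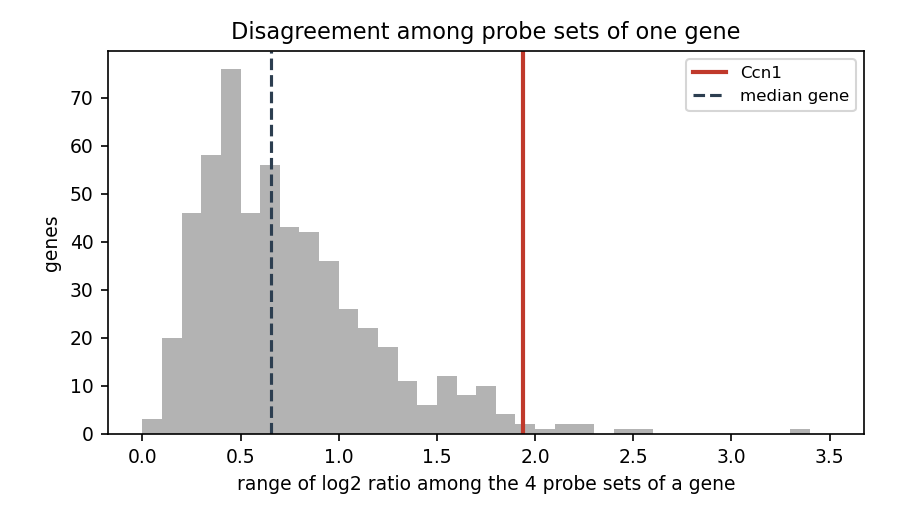
Number of genes (vertical axis) by the range of log2 ratios among their 4 probe sets (horizontal axis, log2 units), for the 553 genes with 4 probe sets that both arrays measured above the floor. Ccn1 (red line, 1.94) lies in the right tail, far from the median gene (dashed line, 0.65).

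The promoter table at hand, from RefSeq, held 1 of the 5 members, Ccn1. Its 250 bases upstream of the annotated start are shown because Ccn1 and Ccn2 are textbook targets of TEAD factors, the DNA-binding partners of YAP, whose other targets are described below. The window is chr3:145649986-145650235 of GRCm38.p6, minus strand, read 5′ to 3′ along the gene. Capitals mark matches to GGAATG, the TEAD motif, to TGACG, the core of a cAMP response element, and to the TATA box letters TATAAA, searched on both strands; none of the matches overlapped.
Ccn1: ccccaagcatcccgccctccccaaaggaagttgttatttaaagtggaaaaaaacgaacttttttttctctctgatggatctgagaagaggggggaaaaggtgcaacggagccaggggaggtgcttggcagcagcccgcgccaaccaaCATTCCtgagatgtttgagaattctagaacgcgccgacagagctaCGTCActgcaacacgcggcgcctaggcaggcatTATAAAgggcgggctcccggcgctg
The TEAD match lay on the strand opposite to the gene and its near end was 98 bases upstream of the start, the TGACG match, also on that strand, 54 bases upstream, and the TATA match 20 bases upstream. Among all 32851 upstream windows of the table, 12.6% held GGAATG, 17.8% TGACG and 12.4% TATAAA. A match of letters is a description and no evidence of binding.

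Ccn4 (earlier Wisp1), a regulator of bone and fibroblast growth, lies on chromosome 15 and had 2 probe sets that gave like values. The brighter one (1448594_at) had a signal of 826 on the Fut8-/- array, against 1431 on the Fut8+/+ array, and a log2 ratio of -0.57. The other (1448593_at) had 735 on the Fut8-/- array, against 1169 on the Fut8+/+ array, and a log2 ratio of -0.45. Both were lower on the Fut8-/- array by less than 2-fold, with an SD of 0.27 between probe sets of one gene at this level (639 genes). A ratio as low or lower was found for 17.0% of measured genes. Over 9 alternative settings the log2 ratio stayed between -0.79 and -0.51.

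Ccn3 (earlier Nov), which opposes several actions of Ccn2, lies on the same chromosome and was below the limit for measured genes on both arrays. Its probe sets had signals of 5.41 and 1.29 on the Fut8-/- array, under the floor, against 23.5 and 30.6 on the Fut8+/+ array. As bounds they would be at least 1.90-fold and at least 2.48-fold lower, but neither signal reached the limit and values at the floor have no order. Both were designed from the same sequence record. On chromosome 15 the median log2 ratio of all measured genes was -0.06. Ccn6, the remaining gene of the family and no member here, was near or under the floor, with 11.8 on the Fut8-/- array, against 7.51 on the Fut8+/+ array.

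**Figure D4:**
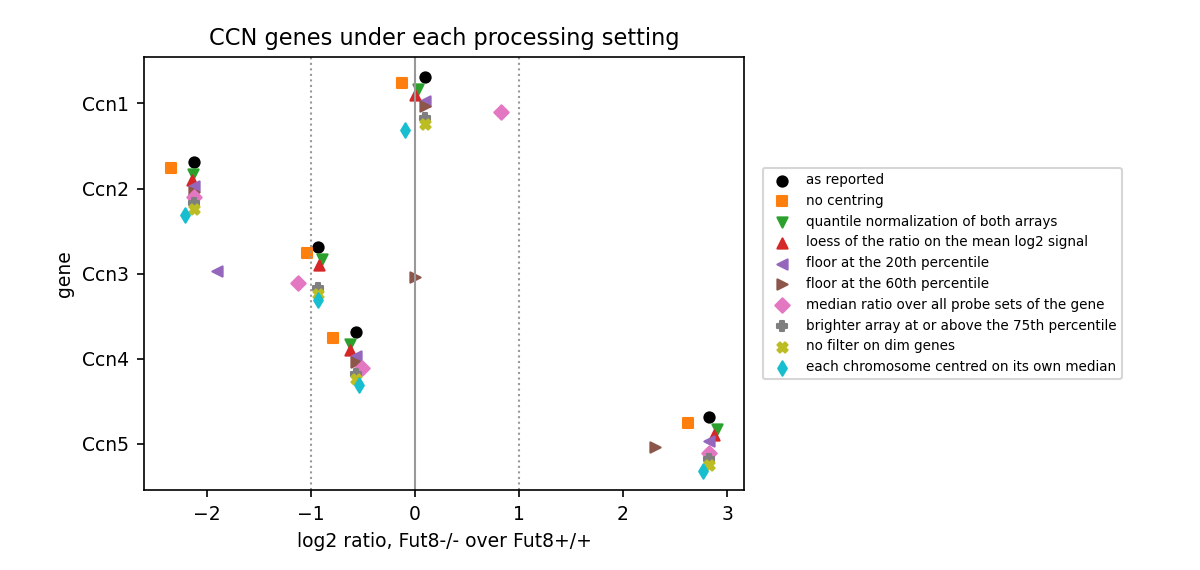
Log2 ratio of Fut8-/- over Fut8+/+ (horizontal axis) of each CCN gene under the reported setting and 9 alternatives; dotted lines mark 2-fold. Ccn2 stays between -2.34 and -2.12 and Ccn5 between 2.31 and 2.90, whereas Ccn1 and Ccn3 depend on the probe set or the floor.

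Over these 2 arrays, the measured genes nearest to Ccn2 in the pair of log2 signals were Chac1, an enzyme that breaks down glutathione (255 on the Fut8-/- array, against 1168 on the Fut8+/+ array, distance 0.29), the chemokine gene Cxcl12 (257 in Fut8-/- and 1172 in Fut8+/+, distance 0.29) and the growth factor gene Pdgfa (238 in Fut8-/- and 900 in Fut8+/+, distance 0.31). Nearest to Ccn5 were the talin gene Tln2 (154 in Fut8-/- and 26.9 in Fut8+/+, distance 0.11), the transcriptional cofactor gene Lbh (152 in Fut8-/- and 24.2 in Fut8+/+, distance 0.21) and the chemokine gene Ccl9 (162 in Fut8-/- and 32.3 in Fut8+/+, distance 0.25). With only 2 values per gene such closeness says no more than that the signals are alike.

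Genes connected with the family, as regulators, fellow targets, receptors or partners, were read from 10 lists holding 141 distinct genes, 7 of them in more than 1 list. Of 100 measured, 11 were higher past 2-fold (11%, beside 6.08% of all measured genes) and 19 were lower past 2-fold (19%, beside 8.46%). The median log2 ratio was -0.09. The lists were chosen with earlier results of these data known, so nothing is read from those differences. Most YAP and TEAD targets other than the CCN genes lay within 2-fold, as most measured genes did. Of 18 measured, 3 passed 2-fold upward (16.7%, beside 6.08% of all measured genes) and 1 downward (5.56%, beside 8.46%). The other 14 lay between, and the median was 0.14. Whether YAP bears on the Ccn2 value was not tested. Ankrd1, a nuclear cofactor and a standard readout of YAP, had 1924 on the Fut8-/- array, against 1779 on the Fut8+/+ array (log2 ratio 0.33). The higher ones were the surface nucleotidase gene Nt5e (at least 5.45-fold, 57.9 in Fut8-/- and 12.2 in Fut8+/+), the forkhead factor gene Foxf2 (at least 4.49-fold, 47.6 in Fut8-/- and 7.32 in Fut8+/+) and the kinase gene Lats2 (2.06-fold, 580 in Fut8-/- and 328 in Fut8+/+). Nt5e and Foxf2 were dim with the Fut8+/+ array at the floor, and with the floor at the 60th percentile their log2 ratios were 0.78 and 0.50, under 2-fold. Over the probe sets of Nt5e the median was 0. The log2 ratio of Lats2 was 0.82 without centring and 0.12 at the median over its probe sets. The RNA-binding protein gene Rbms3 was 2.36-fold lower, with 250 on the Fut8-/- array, against 686 on the Fut8+/+ array.

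Among 18 measured components of the Hippo pathway, which restrains YAP and TAZ, 2 passed 2-fold upward (11.1%, beside 6.08% of all measured genes). Downward 1 passed it (5.56%, beside 8.46%), and the median was -0.09. The higher ones were Wwtr1 and Lats2, which the YAP and TEAD list also holds. Lats2 was under 2-fold without centring (log2 ratio 0.82), with each chromosome centred (0.97) and at the median over its probe sets (0.12). Yap1 itself had a log2 ratio of 0, with 1037 on the Fut8-/- array, against 1211 on the Fut8+/+ array as deposited. Wwtr1, which encodes TAZ, was 2.45-fold higher (2553 in Fut8-/- and 1213 in Fut8+/+) and all 3 of its probe sets were higher. The angiomotin-like gene Amotl1 was 2.41-fold lower (283 in Fut8-/- and 795 in Fut8+/+).

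Of 18 measured serum response factor genes, 4 were lower past 2-fold (22.2%, beside 8.46% of all measured genes). Higher past 2-fold was 1 (5.56%, beside 6.08%), and the median was 0.08. The myosin light chain gene Myl9 was at least 7.77-fold lower (9.21 in Fut8-/- and 96 in Fut8+/+), the actin-binding protein gene Tagln 6.70-fold (20.2 in Fut8-/- and 158 in Fut8+/+) and the immediate early gene Egr1 3.36-fold lower (600 in Fut8-/- and 2345 in Fut8+/+). Fhl2, a LIM domain cofactor, was 3.75-fold higher (1259 in Fut8-/- and 391 in Fut8+/+). With the floor at the 60th percentile the log2 ratio was -1.29 for Myl9 and -2.01 for Tagln. Srf itself was within 2-fold, at a log2 ratio of 0.73.

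TGF-beta targets differed in both directions. Of 17 measured, 2 passed 2-fold upward (11.8%, beside 6.08% of all measured genes) and 4 passed it downward (23.5%, beside 8.46%). The median was -0.28. The matrix gene Postn was at least 92.8-fold higher (984 in Fut8-/- and 11.3 in Fut8+/+) and the matrix gene Tgfbi 6.92-fold higher (841 in Fut8-/- and 141 in Fut8+/+). Ltbp2, whose product binds matrix microfibrils, was lower by at least 5.81-fold (6.30 in Fut8-/- and 71.7 in Fut8+/+) and fibronectin (Fn1) 3.25-fold lower (1254 in Fut8-/- and 4734 in Fut8+/+). With the floor at the 60th percentile the log2 ratio was 4.87 for Postn and -0.87 for Ltbp2, the second no longer past 2-fold. Smad7, the feedback inhibitor of the pathway, had a log2 ratio of 0.03.

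**Figure D5:**
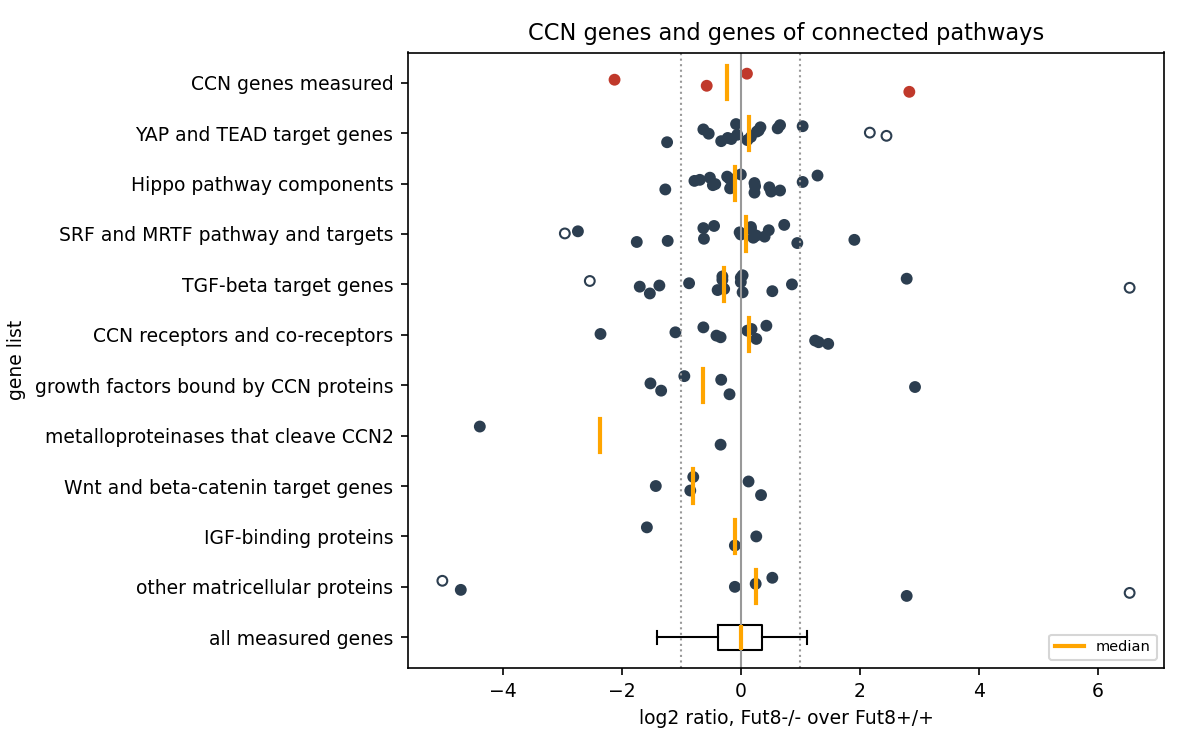
Log2 ratio of Fut8-/- over Fut8+/+ (horizontal axis) of the measured CCN genes (red) and of the measured genes of 10 connected lists (dark), with orange bars at the medians; open circles are bounds, with 1 array at the floor, and dotted lines mark 2-fold. The box at the bottom holds the quartiles of all measured genes with whiskers at the 5th (-1.41) and 95th (1.12) percentiles. Most YAP and TEAD targets lie within 2-fold. Ccn2 and Ccn5, from a family picked by these ratios, lie outside the whiskers.

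Receptors and co-receptors through which CCN proteins act were mixed. Of 12 measured, 3 passed 2-fold upward (25%, beside 6.08% of all measured genes) and 2 passed it downward (16.7%, beside 8.46%). The median was 0.15. The integrin gene Itga6 was 5.13-fold lower (38.2 in Fut8-/- and 228 in Fut8+/+) and Itga5 2.15-fold lower (25 in Fut8-/- and 62.7 in Fut8+/+), while the alpha-v integrin gene Itgav was within 2-fold (2668 in Fut8-/- and 2301 in Fut8+/+, log2 ratio 0.43). Igf2r was 2.78-fold higher (310 in Fut8-/- and 130 in Fut8+/+), Fgfr2 2.49-fold (215 in Fut8-/- and 101 in Fut8+/+) and Notch1 2.38-fold higher (124 in Fut8-/- and 60.5 in Fut8+/+). With the median over its probe sets the log2 ratio of Fgfr2 was 0.90, under 2-fold. Only 1 of the 4 probe sets of Itga5 was measured with both arrays above the floor. With the floor at the 60th percentile, Itga5 no longer counted and 1 receptor gene was lower, in place of 2. The same held with the filter at the 75th percentile and with the median over probe sets.

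Of 6 measured growth factors that CCN proteins bind, 1 passed 2-fold upward (16.7%, beside 6.08% of all measured genes). Downward 2 passed it (33.3%, beside 8.46%), with a median of -0.64. Bmp4 was 7.62-fold higher (578 in Fut8-/- and 88.3 in Fut8+/+), Tgfb3 2.87-fold lower (51.6 in Fut8-/- and 172 in Fut8+/+) and Vegfa 2.53-fold lower (110 in Fut8-/- and 324 in Fut8+/+), although Vegfa was -0.92 at the median over its probe sets. Of 2 measured metalloproteinases that cleave Ccn2 protein, Mmp2 was 21.0-fold lower (32.7 in Fut8-/- and 799 in Fut8+/+) and Mmp14 within 2-fold (783 in Fut8-/- and 1152 in Fut8+/+). These are transcript levels, and protein cleavage was not measured.

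Wnt targets were sparsely measured, 5 of 14, with a median of -0.80. Apcdd1 was 2.69-fold lower (26.6 in Fut8-/- and 83.4 in Fut8+/+), with a log2 ratio of -0.94 at the median over its probe sets. It was the only 1 lower past 2-fold (20%, beside 8.46% of all measured genes), and 0 were higher (0%, beside 6.08%). The common Wnt readout Axin2 was below the limit for measured genes, with 11.4 on the Fut8-/- array, against 22.5 on the Fut8+/+ array. Of 3 measured IGF-binding proteins, which share a module with CCN proteins, Igfbp4 was 3.00-fold lower (59.3 in Fut8-/- and 207 in Fut8+/+) and the other two were within 2-fold. Other matricellular proteins lay on both sides, with a median of 0.25. Of 7 measured, 2 were higher past 2-fold (28.6%, beside 6.08% of all measured genes) and 2 were lower (28.6%, beside 8.46%). Beside Postn and Tgfbi, which the TGF-beta list also holds, thrombospondin 2 (Thbs2) was at least 32.6-fold lower (5.95 in Fut8-/- and 402 in Fut8+/+) and tenascin C (Tnc) 26.2-fold lower (11.3 in Fut8-/-, close to the floor, and 343 in Fut8+/+). The sizes depend on the settings: at the median over probe sets the log2 ratio was -2.35 for Tnc and -3.86 for Thbs2, and with the floor at the 60th percentile -3.13 and -3.36.

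The labels and the makeup of the cultures were checked with a few further genes. Fut8 was 14.1-fold lower at its brightest probe set (11.7 on the Fut8-/- array, against 191 on the Fut8+/+ array). The Fut8-/- value was 1.10 times the floor, and the log2 ratio of -3.81 became -2.29 with the floor at the 60th percentile. It was 0 at the median over the probe sets of the gene, the other two of which lay at the floor on both arrays. The labels do not say whether the brightest probe set reads the deleted part. The Y-linked Eif2s3y was at least 268-fold higher (2845 in Fut8-/- and 7.06 in Fut8+/+) and Xist 37.2-fold lower (15.2 in Fut8-/- and 656 in Fut8+/+). Sex-linked transcripts thus differed as well, in the pattern of male Fut8-/- cells and female Fut8+/+ cells. The Fut8 genotype cannot be told apart from sex or any other difference between the cultures. Of 15 fibroblast markers 11 were measured. Past 2-fold, 1 was higher (9.09%, beside 6.08% of all measured genes) and 5 were lower (45.5%, beside 8.46%). The higher one was Pdgfrb (2.13-fold). The lower ones were Prrx1 (at least 17.9-fold), Fn1 (3.25-fold), Col5a1 (2.98-fold), Col1a1 (2.59-fold) and Pdgfra (2.26-fold). Summed scaled and floored signals of the list were 42352 on the Fut8-/- array, against 44718 on the Fut8+/+ array. That sum came mostly from bright genes within 2-fold, such as Vim (log2 ratio 0.17) and Col1a2 (-0.04). Thy1, Dcn, Lum and Fap were below the limit on both arrays. Smooth muscle and myofibroblast markers summed to 506 on the Fut8-/- array, against 695 on the Fut8+/+ array (3 of 6 measured lower, 1 higher), neural and glial markers to 250 in Fut8-/- and 818 in Fut8+/+ (3 of 4 lower), epithelial markers to 393 in Fut8-/- and 156 in Fut8+/+ (2 of 3 higher, 1 lower), and chondrocyte and bone markers to 3622 in Fut8-/- and 771 in Fut8+/+ (2 of 4 higher, 1 lower). The shares lower past 2-fold were 50% for smooth muscle, 75% for neural, 33.3% for epithelial and 25% for chondrocyte markers, beside 8.46%. The shares higher were 16.7%, 0%, 66.7% and 50% in that order, beside 6.08%. The chondrocyte and bone sum rested on osteoglycin (Ogn, 2810 in Fut8-/- and 443 in Fut8+/+), without which it was 352 in Fut8-/- and 328 in Fut8+/+. Among the neural and glial markers Sox2 had 2.36 in Fut8-/- and 119 in Fut8+/+, and Nes 93.9 in Fut8-/- and 522 in Fut8+/+. Tubb3 had 22.4 in Fut8-/- and 100 in Fut8+/+. Map2 went the other way within 2-fold, with 66.5 in Fut8-/- and 48.2 in Fut8+/+. Among the epithelial ones Krt19 had 155 in Fut8-/- and 2.08 in Fut8+/+, and Dsp 71.1 in Fut8-/- and 5.07 in Fut8+/+. Epcam was the lower one, with 15.9 in Fut8-/- and 44.9 in Fut8+/+. Endothelial markers summed to 300 on the Fut8-/- array, against 380 on the Fut8+/+ array. Macrophage markers summed to 135 in Fut8-/- and 153 in Fut8+/+, and skeletal muscle markers to 132 in Fut8-/- and 152 in Fut8+/+. Other sums also depended on 1 gene. Without Des the skeletal muscle sum turned, to 119 in Fut8-/- and 96 in Fut8+/+. Without Mylk the smooth muscle sum was 259 in Fut8-/- and 634 in Fut8+/+. Without S100a4 the fibroblast sum was 30506 in Fut8-/- and 36566 in Fut8+/+. The neural and glial sum without Nes was 140 in Fut8-/- and 296 in Fut8+/+. The epithelial sum without Krt19 was 212 in Fut8-/- and 144 in Fut8+/+. Genes under the floor entered every sum at the floor value. Of the same lists Sox10, Cdh1, Pecam1, Ptprc, Myog and Col2a1 had signals under the floor on both arrays. The part of these differences in the CCN values was not tested.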

How the data were processed

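Biotin-labelled RNA was hybridised to Affymetrix mouse arrays, 1 per genotype. The submitters' design names 3 cultures for each genotype without saying how they relate to these arrays. The deposited values are linear signal intensity values of 45101 probe sets, made with GCOS per the submitters' processing notes; those notes give no version, signal algorithm or scaling target. The array medians were 16.9 for Fut8-/- and 20.5 for Fut8+/+, so scale and centring of the deposited intensity stay unknown.

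Log2 ratios were centred on their median (-0.22) over the 23885 probe sets that exceeded each array's own 40th percentile. The floor was the 40th percentile and the limit for measured genes the 60th percentile of the pooled scaled signals. Precision is limited by the small number of arrays. Genes were named from the platform annotation (34945 probe sets with 1 symbol, 932 with several, 34741 matched to GRCm38.p6, which changed 0 symbols), using the probe set with the highest mean log2 signal. Named genes were all CCN probe sets, Fut8, from each list at most the 4 largest ratios past 2-fold, and the 3 nearest genes of members past 2-fold; other genes were named after their values were seen. Members and lists were chosen with earlier results of these data known. Steps were tested on simulated data. The simulated noise came from differences between probe sets of the same gene on these arrays, so variation between cultures was left out. There were 11 alternative settings. Python 3.11.15, numpy 2.4.6, pandas 2.3.3, statsmodels 0.14.6 and matplotlib 3.10.9 were used.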

Additional observations from a re-analysis of the deposited data

How the results depend on the processing

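Under all 11 alternatives 1 CCN gene (Ccn5) was at least 2-fold higher by the fold in use and 1 (Ccn2) lower, and 41 of the 45 alternative log2 ratios of the members lay within the within-gene SD of 0.40 of the reported ones. The exceptions were Ccn1 with the median over its probe sets (0.83), Ccn3 with the floor at the 20th percentile (-1.90) and at the 60th (0, both arrays at the floor), and Ccn5 with the floor at the 60th percentile (2.31). Many of the 45 values could not move, so their count is no measure of stability. The filter on dim genes changes no ratio, and the floors used do not reach Ccn1, Ccn2 or Ccn4. The median over probe sets cannot move Ccn2 or Ccn5, which have 1 probe set each. Over all genes, in place of 618 higher and 860 lower, 1466 and 1692 passed 1.5-fold, 286 and 427 passed 3-fold, and 332 and 448 passed 2-fold with the filter at the 75th percentile. Over the pathway lists, in place of 11 higher and 19 lower, 29 were lower at 1.5-fold, 6 were higher and 9 lower at 3-fold, and 7 were higher with the median over probe sets. Of 220 counts of single lists 30 moved by more than 1.5 times; without centring 4 bound growth factors and 3 Wnt targets were lower, in place of 2 and 1, and with the median over probe sets 0 YAP and TEAD targets were higher, in place of 3. No paired analysis was possible because each genotype has 1 array. Leaving out a replicate was not possible for the same reason. Signals near the floor limit Ccn3 and the Fut8+/+ value of Ccn5.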
